A study of Homo sapiens with 2 samples.

Results

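The genes described here were the protein-coding genes of human chromosome 19 whose symbol is ZNF followed by a number and at most 1 letter, that is, named C2H2 zinc finger genes. The rule found 246 such genes in the annotation of the GRCh37 genome, of which 245 had a row among the 57736 genes measured, while ZNF8 was not analysed here. They were measured by RNA-Seq in HEK293T, a human embryonic kidney line into which the large T antigen of SV40 was introduced. The cells had no treatment, their genotype was labelled wild type, and they were grown to 80% confluency. Both libraries of poly(A)+ RNA belonged to this single group, so nothing was compared between conditions. Nothing in the labels said that the replicates came from separate cultures, so their spread may be technical.

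A C2H2 zinc finger is a short fold that holds a zinc ion between a pair of cysteines and a pair of histidines, and fingers repeated in tandem read a stretch of DNA. Many genes of this family also encode a KRAB domain, which binds the corepressor TRIM28 and through it the enzymes that set repressive histone H3 lysine 9 methylation. Chromosome 19 carries large arrays of these genes that arose by tandem duplication, and a number of their proteins bind transposable elements.

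The repeated unit of the family is shown first, because it is what the members share beyond their names. In the coding frames of 244 members, 3096 fingers matched the letter pattern of a C2H2 finger, and 90.6% of 2852 neighbouring fingers began exactly 28 codons apart. A single 84-base unit of that spacing was read from the GRCh37 genome for 4 members, namely the member with the highest level, the highest member of the fourth cluster along the chromosome, and 2 members of that cluster with a high and a low level. Capitals mark the codons of the 2 cysteines and the 2 histidines. The units lay in coding exons, at chr19:36727394-36727477 on the plus strand for ZNF146, at chr19:21299906-21299989 on the plus strand for ZNF714, at chr19:23544896-23544979 on the minus strand for ZNF91 and at chr19:21991894-21991977 on the minus strand for ZNF43.
ZNF146: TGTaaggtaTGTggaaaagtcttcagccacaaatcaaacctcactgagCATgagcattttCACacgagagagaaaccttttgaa
ZNF714: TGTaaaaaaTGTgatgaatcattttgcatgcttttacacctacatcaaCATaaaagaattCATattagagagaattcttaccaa
ZNF91: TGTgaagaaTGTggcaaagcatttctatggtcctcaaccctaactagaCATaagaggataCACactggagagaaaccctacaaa
ZNF43: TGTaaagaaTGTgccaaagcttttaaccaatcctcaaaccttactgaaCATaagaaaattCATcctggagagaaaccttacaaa

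The expected read counts, in which reads matching more than 1 gene are divided between those genes, summed to 10593415 in replicate 1 and 10104032 in replicate 2 after rounding per gene. The 245 members together held 26905 counts in replicate 1 and 26191 in replicate 2, which was 0.260% and 0.266% of those in genes matched to the annotation. The median member had 61.5 counts in each library, and for members far below this median a few reads decided the value. Of 10 genes of the differentiated kidney chosen as markers of the labelled tissue, 5 were at 0 in both libraries and only LRP2, an endocytic receptor of the proximal tubule, was detected.

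Members were detected more often than coding genes in general, but at low levels. A gene was called detected when its TPM, a length-corrected level whose sum is fixed per library, was at least 1 in both replicates. By this criterion 181 of 245 members (73.9%) were detected, against 63.7% of 19392 protein-coding genes, 58.9% of 1188 other coding genes of chromosome 19 and 85.2% of 256 ZNF genes of other chromosomes. The median of log2(mean TPM + 1) was 2.30 over all members and 2.62 over the detected ones. The detected coding genes as a whole had a median of 4.47, the detected coding neighbours on chromosome 19 of 4.77, and the detected ZNF genes of other chromosomes of 3.70. The ZNF genes of chromosome 19 were thus commonly present but lay below each of these lists when detected. Fewer cells with a transcript and less of it per cell cannot be told apart in such bulk libraries.

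No member reached a TPM of 100, which 6.81% of all coding genes did, and 35 members (14.3%) had a mean above 10 TPM against 44.6% of coding genes. Of the detected members 89 had a mean below 5 TPM. The summed TPM of all members was 1542 in replicate 1 and also 1542 in replicate 2, which was 0.154% of the total in each library. The 10 highest members made up 30.2% of this sum and 29 members made up 50%.

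**Figure D1:**
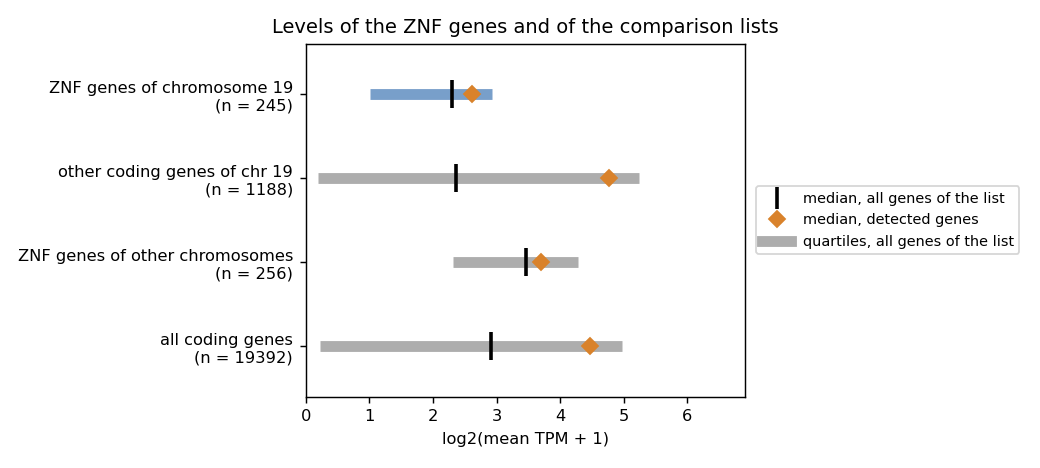
Quartiles and medians of log2(mean TPM + 1) for the 245 ZNF genes of chromosome 19 and for the comparison lists, with bars from the lower to the upper quartile, a black tick for the median of all genes and a diamond for the median of the detected genes. The median of the detected ZNF genes of chromosome 19 (2.62) lies to the left of those of the other lists (3.70 to 4.77).

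The highest member was ZNF146 (ENSG00000167635, chr19:36705504-36729673, plus strand), which encodes a protein made almost entirely of zinc fingers and lacks a KRAB domain. Its level was 92.4 TPM in replicate 1 and 85.8 TPM in replicate 2, from 1749 and 1729 counts. ZNF121 followed with 57.5 and 62.6 TPM. Both values of ZNF146 lay above those of every other member in both libraries.

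The next members followed closely. ZNF580 had 49.1 and 56.7 TPM, and its overlapping neighbour ZNF581 had 31.2 and 36.9 TPM. ZNF428, a gene with a single finger by the pattern, had 56.0 and 49.3 TPM. ZNF358 had 47.5 and 46.6 TPM. ZNF580 and ZNF428 changed places between the libraries and did not differ beyond their spread, whereas both stayed below ZNF121.

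ZNF714 had 39.7 and 37.9 TPM, and was the only one of the 10 highest members in the array nearest the centromere on the short arm, called cluster D below. ZNF444, which encodes a SCAN domain next to its fingers, had 32.8 and 30.6 TPM. ZNF787 had 34.1 and 28.1 TPM. ZNF414 closed the list with 31.6 and 25.04 TPM. Of these 10 members 5 had at most 4 fingers by the pattern, whereas the median member had 12, and none of the 10 matched either KRAB letter pattern used below.

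Some members of the family have well-known roles. Of 18 such members listed for description, 17 had a row and 13 were detected. ZNF91, which represses SVA retrotransposons, had 10.4 and 9.57 TPM, from 218 and 185 counts. ZNF93, which binds and represses L1 elements, had 0.12 and 0.060 TPM, from 2.26 and 1.05 counts. These members with related roles thus lay on opposite sides of the threshold in both libraries.

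ZNF274, which recruits the H3K9 methyltransferase SETDB1 to the 3′ ends of zinc finger genes, had 8.79 and 7.69 TPM. ZNF224, described as a repressor of the aldolase A gene, had 8.95 and 8.77 TPM, but 40.1% of its 50-base windows also occurred in the antisense gene ZNF225-AS1. ZNF45 had 10.1 and 7.59 TPM. ZNF85 had 5.69 and 9.13 TPM. The latter was higher in replicate 2, with an adjusted p of 0.0552 in the test described below, over the threshold of 0.05.

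Lower levels were measured for further members of known function. ZNF175, first studied as a factor acting on the HIV-1 promoter in macrophages, had 4.48 and 8.10 TPM. ZNF649 had 6.35 and 4.68 TPM. ZNF180 had 4.26 and 5.17 TPM. In none of these 3 did the libraries differ at an adjusted p below 0.05.

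ZNF420, a regulator of p53 also called APAK, had 3.18 and 5.20 TPM. ZNF382, which has been described as a tumour suppressor, had 3.82 and 3.12 TPM. ZNF568, whose mouse counterpart represses a placental transcript of Igf2, had 2.50 and 3.93 TPM. The 3 genes lie in the same array on the long arm, where every member was detected.

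ZNF350, also called ZBRK1 and known as a partner of BRCA1, had 2.38 and 2.95 TPM. ZNF331, an imprinted gene, had 1.09 and 0.58 TPM, from 18 and 6 counts, and crossed the threshold between the libraries. ZNF43 had 0.34 and 0.050 TPM, and ZNF253 had 0.20 and 0.070 TPM. ZNF331, ZNF43, ZNF253 and ZNF93 were the 4 listed members with a row that were not detected.

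The detected share differed between positions along the chromosome. Members less than 1 Mb from the next were joined into positional clusters, of which 9 held at least 5 members and together 234 of the 245. They are called A to I from the end of the short arm to the end of the long arm. Cluster A spanned chr19:2819866-2944969 with 5 members, B chr19:7069714-9903856 with 15, C chr19:11594242-12750912 with 25, D chr19:19779605-24312770 with 37, E chr19:35168544-35455133 with 5, F chr19:36673178-38307940 with 26, G chr19:44029649-45579736 with 24, H chr19:52074536-54083523 with 39 and I chr19:55987984-58992597 with 58. Of the 11 members outside them 10 were detected.

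The detected share ranged from 48.0% in cluster C to 100% in clusters E and F. All 26 members of F and all 5 of E were detected. In D 19 of 37 members (51.4%) and in C 12 of 25 were detected, whereas the shares were 64.1% in H, 80.0% in A, 80.0% in B, 82.8% in I and 83.3% in G. The median of log2(mean TPM + 1) was lowest in C (0.84) and D (1.10) and highest in B (3.26). A cluster with a low share could still hold high members, since 6 members of D had a mean above 10 TPM.

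**Figure D2:**
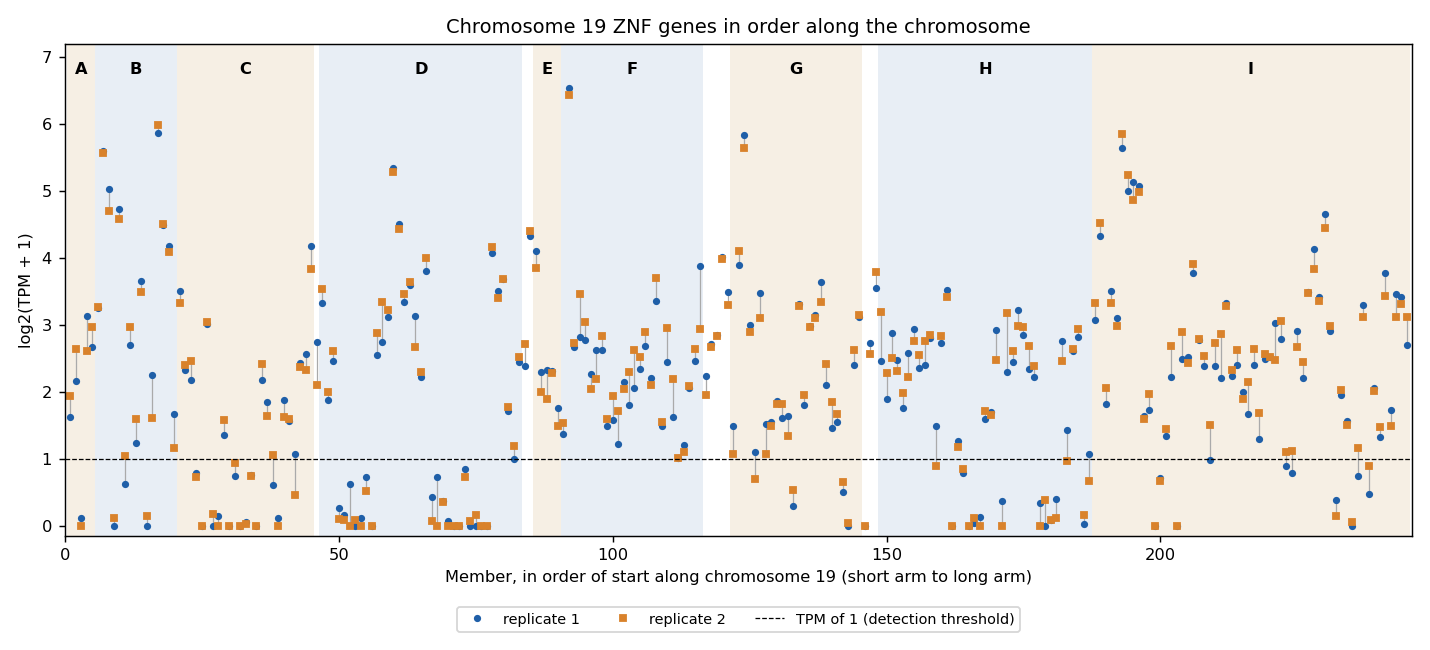
Level as log2(TPM + 1) of each of the 245 members in both replicates, in order of start along chromosome 19, with circles for replicate 1, squares for replicate 2, a line joining the replicates of a member and clusters A to I shaded. Members at 0 stand side by side within cluster D, and no member of cluster F lies below the dashed line at a TPM of 1.

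**Figure D3:**
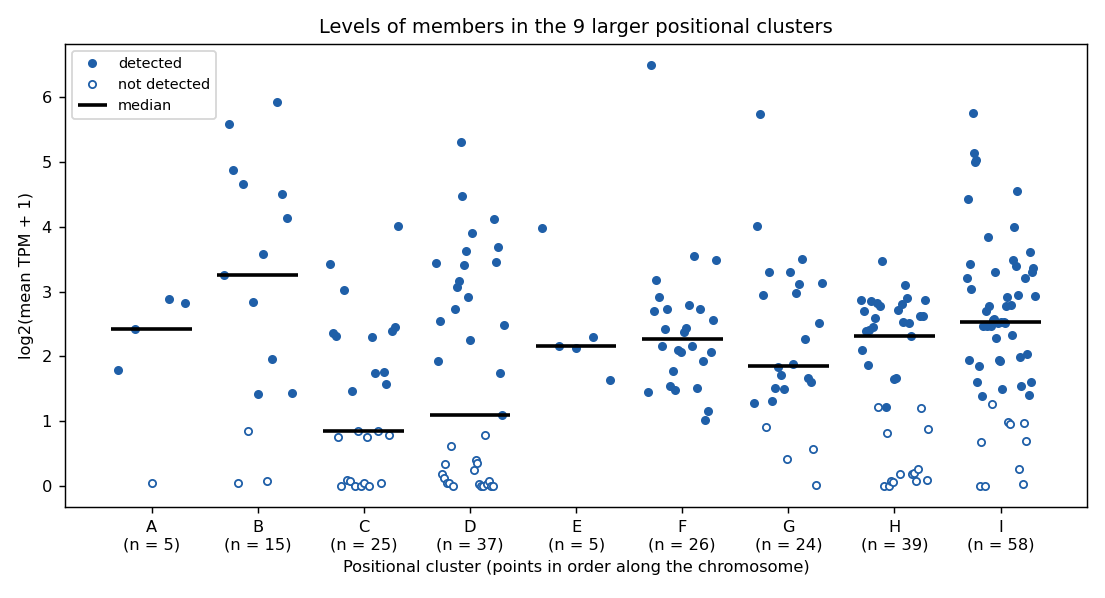
Level as log2(mean TPM + 1) of the members of clusters A to I, with filled points for detected and open points for undetected members and a bar for the cluster median. The medians run from 0.84 in C to 3.26 in B, and C, D and H hold the largest groups of open points, 13, 18 and 14 members.

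In cluster D the 18 undetected members formed only 2 unbroken runs, of 7 and of 11 genes. The run of 11 began with ZNF43 and ended with ZNF730, spanned 1.34 Mb at chr19:21987752-23330023 with no other coding gene inside it, and held 37.6 counts in replicate 1 and 27.1 in replicate 2 over all its members. The highest member within it was ZNF492, with 24.7 and 19.8 counts. On its short arm side stood ZNF100, with 218 and 270 counts and 12.95 and 15.02 TPM. On its far side stood ZNF724, with 290 and 300 counts and 15.8 and 17.01 TPM. The flanking genes were chosen for naming after their values were seen. Each flanking gene therefore held several times the counts of the whole run between them.

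The run of 7 undetected members went from ZNF253 to ZNF626 and spanned 0.868 Mb at chr19:19976691-20844402. It held 14.8 and 10.97 counts in all, and ZNF93 lay within it. The 10 members between both runs, from ZNF66 to ZNF100, were all detected and held 2207 and 2296 counts, with mean levels from 3.79 TPM to the 38.8 TPM of ZNF714. A further 6 detected members followed on the far side of the longer run, among them ZNF91, with 852 and 858 counts in all. The detected and undetected members of D thus lay in blocks of neighbours. A detected member had to reach the threshold in both libraries, so the agreement of these blocks between the libraries was partly set by that criterion.

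Shorter undetected runs were found in clusters C and H. In C, 6 neighbours from ZNF763 to ZNF625 held 9.0 counts in replicate 1 and 22.7 in replicate 2, most of the latter in ZNF20. Windows of read length, described below, were partly shared with other genes in all 6. The shared part was 81.3% in ZNF625, 55.9% in ZNF20, 45.4% in ZNF763, 19.6% in ZNF878, 13.4% in ZNF433 and 2.82% in ZNF844. Whether reads of these members were assigned to other genes was not tested. In H, 4 neighbours from ZNF528 to ZNF808 held 7.33 and 9.0 counts, and 4 neighbours from ZNF415 to ZNF677 held 7.0 and 5.0. Of the 63 undetected members in clusters A to I, 32 lay in the 5 runs of 3 or more. The longest detected run outside F was of 13 members in cluster I, from ZNF548 to ZNF551, with mean levels from 1.83 to 8.89 TPM.

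The extremes of each cluster were as follows. In A, ZNF57 was highest with 7.75 and 5.11 TPM, and ZNF556 was lowest with 0.080 and 0 TPM. In B, ZNF121 was highest and ZNF558 lowest, with 0 and 0.080 TPM. In C, ZNF791 was highest with 17.1 and 13.3 TPM, whereas 4 members were at 0. The lowest members of these clusters rested on at most a single count in either library.

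In E the highest member ZNF302 had 16.2 and 13.4 TPM and the lowest, ZNF792, had 2.39 and 1.82. In F the lowest was ZNF793, with 1.02 TPM in both libraries, next to the 92.4 and 85.8 TPM of ZNF146. In G the range ran from ZNF428 down to ZNF229, with 0 and 0.030 TPM. In H the highest member was ZNF480, with 10.5 and 9.67 TPM, and 2 members were at 0. ZNF480 was the single member of H above a mean of 10 TPM, against 7 members of B and 10 of I.

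Neighbours were more alike in level than members picked from anywhere on the chromosome. The median absolute difference of log2(mean TPM + 1) was 0.75 over 229 pairs of adjacent members within a cluster and 1.36 over all 29890 pairs of members. Spearman's rho between the levels of adjacent members was 0.382 over the 229 pairs, which share genes with each other, as a description. Both genes of an adjacent pair were detected in 138 pairs, neither in 35 and only one in 56. The medians differed by 0.61, and by 0.29 when the detected members alone were used.

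In 4 pairs, all in cluster F, neighbours on opposite strands began within 1 kb of each other. They were picked by position but named after their values were seen. ZNF829 had a mean of 3.29 TPM and ZNF568, which starts 25 bases from it, of 3.22 TPM. ZNF529 had 6.56 TPM and ZNF382 3.47 TPM. ZNF585B had 5.95 TPM and ZNF383 3.46 TPM. ZNF790 had 2.42 TPM and ZNF345 1.80 TPM. All 8 genes were detected, as were all 26 members of F. The median absolute difference of log2(mean TPM + 1) within the pairs was 0.463, and it was 0.75 over all 229 adjacent pairs within clusters. In 3 of the 4 pairs the ends of the genes overlapped, but exons overlapped only between ZNF529 and ZNF382 and between ZNF585B and ZNF383. Reads of the overlapping exons could be told apart only if strand was used in counting, which the sources do not state.

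The promoters of the neighbours ZNF100 and ZNF43 are shown because the edge of the longest undetected run lies between them. The 250 bases before each start were taken from RefSeq with coordinates of the build GRCh38.p14, at chr19:21767580-21767829 for ZNF100 and chr19:21836183-21836432 for ZNF43, both on the minus strand. Capitals mark CG dinucleotides, 8 in ZNF100 and 9 in ZNF43.
ZNF100: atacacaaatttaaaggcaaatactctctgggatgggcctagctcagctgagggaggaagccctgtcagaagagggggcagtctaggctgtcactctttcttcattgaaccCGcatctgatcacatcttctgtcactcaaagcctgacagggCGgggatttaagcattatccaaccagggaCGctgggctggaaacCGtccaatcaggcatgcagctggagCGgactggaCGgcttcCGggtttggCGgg
ZNF43: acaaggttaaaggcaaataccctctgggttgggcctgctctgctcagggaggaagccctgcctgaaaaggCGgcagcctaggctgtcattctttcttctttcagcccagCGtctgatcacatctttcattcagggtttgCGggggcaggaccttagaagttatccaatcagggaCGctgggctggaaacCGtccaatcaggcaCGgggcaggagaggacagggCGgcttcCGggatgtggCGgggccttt

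The promoters of the detected ZNF100 and the undetected ZNF43 were alike, with 77.3% identity over the 300 bases from 250 before to 50 after the start and a shared run of 35 bases. That run occurred in no other of the 27305 promoters of the table. It contains the letters CCAAT, the core of the CCAAT box, which were therefore searched on both strands after these sequences had been seen. They occurred in all 29 members of cluster D with a promoter in the table, 17 detected and 12 undetected, and in 22 of 24 members of C. In the other clusters they occurred in 5 of 5 promoters in A and in 32 of 53 in I but in 4 of 20 in G, 6 of 25 in F, 9 of 32 in H, 4 of 14 in B and 2 of 4 in E. The share was 53.5% over all 215 members with a promoter and 35.7% over all promoters. The match is a description of letters, and within D it did not separate the detected from the undetected members.

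CG dinucleotides in the 300 bases numbered 21 in the median detected member, 16 in the median undetected member and 14 in the median of all promoters. This difference also went along with the cluster. In D the median was 10 in the detected and 10 in the undetected members, whereas over the other members it was 22 and 19. In cluster I alone the order was the reverse, with 23 in the detected and 29 in the undetected members. Across 215 members Spearman's rho between the number of CG dinucleotides and the level was 0.112, as a description. A promoter was not matched for 30 members.

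A KRAB box was looked for in the coding frames as a letter pattern. The stricter pattern was found in 164 of 244 members, whose median level on the log2(mean TPM + 1) scale was 2.16 against 2.46 in the 80 without it, and 68.9% against 83.8% of them were detected. The difference of the medians was -0.30, and it was -1.09 with a broader pattern that was chosen after the first results and found 186 members, 19 rather than 2 of them in cluster G. A mean above 10 TPM was measured for 7.53% of 186 members with the broader pattern and for 36.2% of 58 without it, whereas with the stricter pattern it was measured for 19 of 164 (11.6%) and 16 of 80. The size of the difference depended on the pattern and on members near 0. With the stricter pattern it was -0.30 over all members, with an SD between the replicates of 0.072. Among members with a mean of at least 0.1 TPM it was -0.075, for which no such SD was taken. The frame available for ZNF274 was a fragment without a finger, and that gene was not classified.

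The number of fingers ran from 1 in ZNF428 to 36 in ZNF208, and the coding length from 170 codons in ZNF576 to 1379 in ZNF536. ZNF208 had 0.65 and 0 TPM, from 4.58 and 0 counts. ZNF576 had 13.9 and 16.2 TPM. ZNF536, a gene of neural development that lies outside the clusters, had 4.22 and 5.58 TPM. Members with 6 fingers or fewer had a median log2(mean TPM + 1) of 3.28 (n = 20), those with 7 to 15 of 2.14 (n = 168) and those with over 15 of 2.39 (n = 56), and Spearman's rho between fingers and level was -0.11 over 244 members, as a description.

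Of the 64 undetected members 37 had at most 3 counts in either library, and 14 had none in both. The latter were ZNF491, ZNF763, ZNF878 and ZNF625 in cluster C, ZNF626, ZNF729, ZNF98, ZNF728 and ZNF730 in D, ZNF610 and ZNF534 in H, ZNF667 and ZNF835 in I, and ZNF541 outside the clusters with 5 or more members. A count of 0 allows up to 3 counts, which for these 14 members corresponded to 0.109 to 0.810 TPM per library and covers counting error only. Their transcripts were therefore not detectable at this depth rather than shown to be absent.

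Near the threshold the call depended on few reads. Just inside lay ZNF726 with 1.0 and 1.29 TPM, ZNF793 and ZNF575, the latter with 1.80 and 1.09 TPM. Just outside lay ZNF547 with 0.97 and 1.85 TPM, ZNF525 with 1.68 and 0.95 TPM and ZNF836 with 1.80 and 0.86 TPM. In all 11 members reached 1 TPM in a single library only.

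The libraries gave similar values. Over 245 members Spearman's rho between the replicates was 0.968, as a description across genes. The median absolute difference of log2(TPM + 1) between the replicates was 0.195 over the 181 detected members and 0.131 over 11063 other detected coding genes in the same range of summed counts. Counts were not matched within that range, and the part of depth in the difference was not tested. The largest difference among the detected was 0.95 in ZNF573, with 13.8 and 6.66 TPM from 63 and 51.3 counts. The transcript length that the deposited tables give for it, a mean over its isoforms in each library, was 660 bases in replicate 1 and 1120 in replicate 2, so the TPM differed more than the counts did.

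Counts were compared between the libraries by an exact two-sided binomial test over all genes with 10 or more counts in sum. At an adjusted p below 0.05, 2 of 201 tested members (0.995%) differed, against 3.88% of all 17920 genes, 1 being higher in replicate 2 as were 2.14% of genes and 1 higher in replicate 1 as were 1.74%. At an unadjusted p below 0.05 there were 11 members (5.47%) against 13.3% of genes. The detected members had a median summed count of 182 against 684 in detected coding genes, and the part of this depth in the shares was not tested. This test compares a pair of libraries, not conditions.

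The first of the called members was ZNF20 in cluster C, with 2.0 counts in replicate 1 and 14.7 in replicate 2 (adjusted p = 0.0311 by the exact binomial test). Its posterior SD, a measure of how surely shared reads were assigned, was 3.09 and 3.31 counts, and 51.5% of its 50-base windows also lay in the read-through gene ZNF625-ZNF20. Its TPM was 0.69 and 0.68, since the deposited transcript length was 436 bases in replicate 1 and 3061 in replicate 2. The other was ZNF787, with 476 and 363 counts and an adjusted p of 0.0487 by the same exact test. Neither was called with posterior mean counts in place of the expected counts, or with no minimum count.

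**Figure D4:**
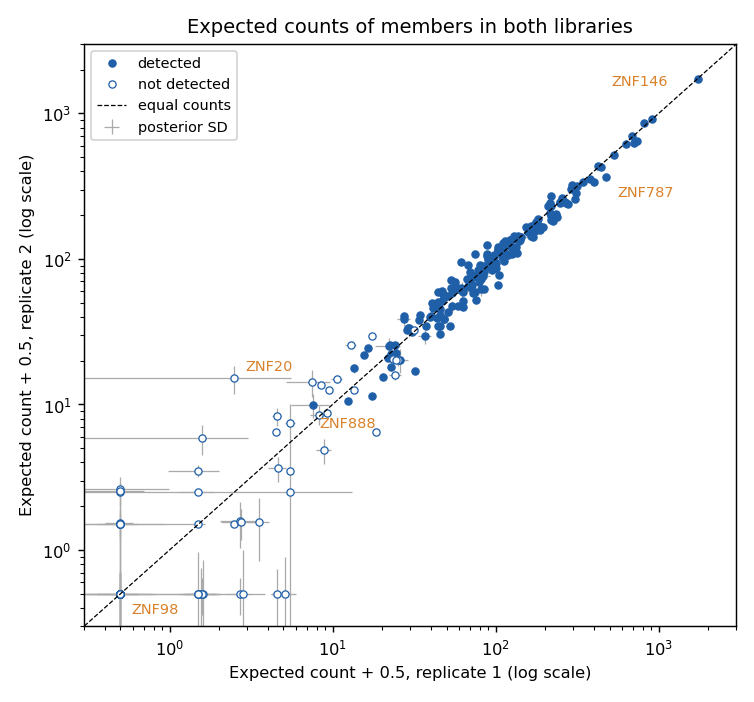
Expected counts of the 245 members in replicate 1 (horizontal axis) and replicate 2 (vertical axis), each with 0.5 added and on a log scale, with grey bars for the posterior SD and a dashed line for equal counts. ZNF146 lies near the line at 1749 and 1729 counts, while ZNF20 lies off it with a bar wider than its 2.0 counts in replicate 1.

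How much sequence the members share was measured on annotated transcripts. A median of 4.87% of the 50-base windows of a member, as long as a read, also occurred in another gene, and 20 members shared none. In 8 members more than 50% of the windows were shared, up to 85.6% in ZNF177. Only 0.327% of the median member's windows were found in its closest other member by this measure. Of the 245 members 139 had an exon overlapping one of another gene, 83 on the same strand and 74 on the other, and their detected share was 77.7% against 68.9% of the 106 without an overlap.

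The posterior SD was a small part of the count for nearly all detected members. It exceeded 0.2 of the expected count in 1 of 181 detected members (0.552%), against 1.77% of other detected coding genes in the same count range. At a ratio over 0.1 the order was the opposite, with 8 members (4.42%) against 3.47%. Among the 50 undetected members with a count in either library the ratio exceeded 0.2 in 22. Counts were not whole, a sign that reads had been shared out, in 124 detected members (68.5%) against 47.7% of those genes. The median ratio of posterior SD to count was 0.0106 in the members and 0.000685 in the others. Sharing thus touched a larger share of the detected members than of those genes, mostly by small amounts. Across the 181 detected members Spearman's rho between the share of windows and this ratio was 0.725, as a description.

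The detected member over 0.2 was ZNF888, with 7.04 and 9.43 counts and a posterior SD of 2.0 and 1.91. Its TPM of 6.17 and 6.84 rested on a deposited transcript length of 201 bases in replicate 1 and 240 in replicate 2, and 15.98% of its windows also occurred in ZNF320. ZNF223 followed with 25.4 and 19.7 counts and a posterior SD of 3.31 and 3.80. ZNF177 had 21.7 and 24.9 counts with 3.82 and 3.39, and all its shared windows lay in the read-through gene ZNF559-ZNF177. ZNF816 had 61.5 and 59.9 counts with 9.85 and 9.10, and its read-through partner was ZNF816-ZNF321P. The last 2 overlap their read-through genes, whereas ZNF888 and ZNF320 do not overlap.

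Of the remaining 6 of the 10 detected members with the largest ratios, ZNF155 shared most with the divergent gene ZNF230-DT, ZNF490 and ZNF564 with a common overlapping gene, and ZNF443, ZNF417 and ZNF799 with another member. Their largest ratios of posterior SD to count lay between 0.0873 in ZNF799 and 0.114 in ZNF155.

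**Figure D5:**
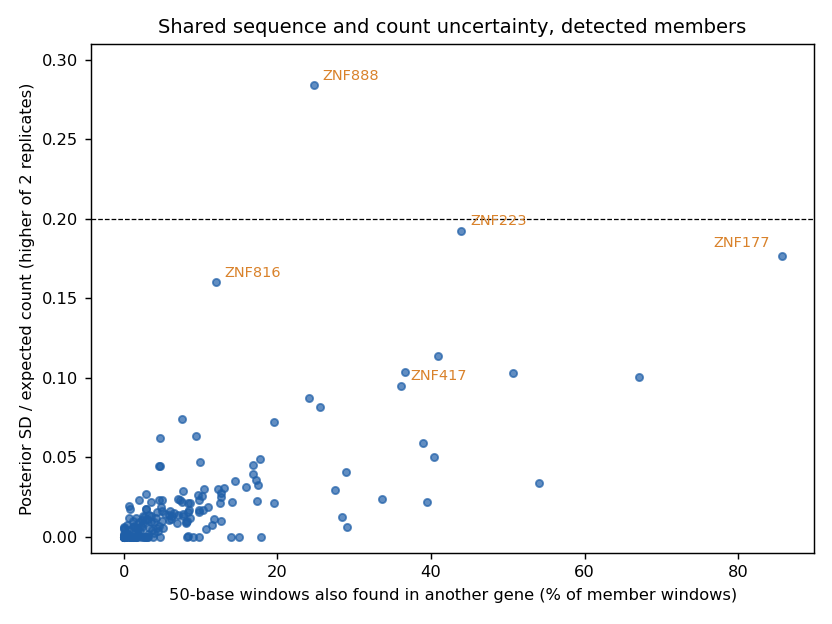
Share of a member's 50-base windows that also occur in another gene (horizontal axis, percent) and the larger of its ratios of posterior SD to expected count in the replicates (vertical axis) for the 181 detected members, with a dashed line at 0.2. Only ZNF888 lies above the line, and ZNF177 lies farthest to the right at 85.6%.

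Neighbouring copies show how alike members can be while their counts differ. The coding sequence of a member was most like that of a member of the same cluster in 81.6% of 245, and 10 members had a counterpart over 90% identical. Windows of 100 coding bases are shown for 3 adjacent pairs, with capitals at the bases that differ. They lay on GRCh37 at chr19:58370296-58370395 (plus strand) for ZNF587 and chr19:58421031-58421130 (minus) for ZNF417, at chr19:22575500-22575599 (minus) for ZNF98 and chr19:22846786-22846885 (plus) for ZNF492, and at chr19:12502024-12502123 (minus) for ZNF799 and chr19:12541714-12541813 (minus) for ZNF443.
ZNF587: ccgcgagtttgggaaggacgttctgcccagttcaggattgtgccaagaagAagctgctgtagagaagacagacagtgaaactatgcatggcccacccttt
ZNF417: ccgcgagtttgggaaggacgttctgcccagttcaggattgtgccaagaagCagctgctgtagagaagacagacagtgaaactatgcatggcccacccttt
ZNF98: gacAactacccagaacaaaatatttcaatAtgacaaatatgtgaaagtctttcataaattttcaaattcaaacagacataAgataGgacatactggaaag
ZNF492: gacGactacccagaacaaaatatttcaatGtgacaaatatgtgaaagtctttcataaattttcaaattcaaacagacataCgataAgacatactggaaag
ZNF799: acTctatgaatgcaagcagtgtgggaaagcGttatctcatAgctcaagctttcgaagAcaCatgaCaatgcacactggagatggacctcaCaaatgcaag
ZNF443: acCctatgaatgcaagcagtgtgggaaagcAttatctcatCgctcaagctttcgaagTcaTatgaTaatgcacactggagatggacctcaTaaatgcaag

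ZNF587 and ZNF417, with 99.1% identity over 1725 coding bases and 16 differing bases, shared a run of 538 bases, so that 66.6% of their 50-base coding windows were the same. ZNF587 nonetheless received 735 and 644 counts, and ZNF417 received 108 and 117. The posterior SD was 15.99 and 11.6 counts in ZNF587 and 10.3 and 10.1 in ZNF417. The difference in counts between the genes was thus many times the uncertainty of the sharing in both libraries. The deposited transcript length was larger for ZNF587, and the mean levels were 22.5 TPM in ZNF587 and 6.69 TPM in ZNF417. The gene with the most transcript windows in common with ZNF587 was not ZNF417 but an overlapping neighbour (31.1%).

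ZNF98 and ZNF492 were 92.0% identical, and 57.8% of the coding windows of ZNF98 also occurred in ZNF492. All counts were assigned to ZNF492, with 24.7 and 19.8, and none to ZNF98, whose posterior SD was 1.54 and 1.72 counts. ZNF799 and ZNF443, at 92.6%, had 53.8 and 46.9 counts and 27.0 and 38.1 counts. ZNF585A and ZNF585B, at 96.1%, had 136 and 143 counts and 157 and 162 counts. In the last 2 pairs the copies were at similar levels.

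In 3 further adjacent pairs over 86% identical both copies were detected, with 79.3 and 90.5 counts in ZNF264 and 71.1 and 65.9 in ZNF805, with 164 and 143 in ZNF324B and 224 and 182 in ZNF324, and with 23.7 and 25.03 in ZNF222 and 25.4 and 19.7 in ZNF223. ZNF737 and ZNF626, at 87.3%, were both undetected, with 4.04 and 7.82 counts in ZNF737 and none in ZNF626. In all 8 pairs described the copies were on the same side of the detection threshold, 6 pairs above it and 2 pairs, both in cluster D, below it. Among all 229 adjacent pairs within clusters both genes were detected in 138, neither in 35 and only 1 in 56. Being on the same side was thus common among neighbours in general, and whether it was more common in alike copies was not tested.

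Most genes that act with the KRAB domain lay above the median level of the detected members, which was 5.16 TPM. The detected coding genes as a whole had a median of 21.2 TPM, and MORC3, SETDB2 and ZFP57 lay below it. Of 26 genes of this machinery described here 25 had a row, UHRF1 was not analysed here, and 24 were detected. Over all coding genes the detected share was 63.7%. TRIM28, the corepressor bound by KRAB, lies on chromosome 19 itself at chr19:59055431-59062089 and had 648 and 576 TPM. No member exceeded it, and the TPM of all 245 members summed to 2.38 times that of TRIM28 in replicate 1 and 2.68 times in replicate 2.

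SETDB1, which trimethylates H3K9, had 46.0 and 37.8 TPM, and its partner ATF7IP had 34.1 and 33.0 TPM. SETDB2, a related methyltransferase, was the lowest detected gene of the list with 5.67 and 5.18 TPM. The HP1 proteins, which bind the mark, had mean levels of 86.5 TPM for CBX1, 173 TPM for CBX3 and 72.8 TPM for CBX5. All of these enzymes and readers of H3K9 methylation were detected in both libraries.

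The 6 NuRD subunits ranged from a mean of 52.0 TPM in CHD3 through CHD4 (164), MTA2 (140), HDAC1 (219) and HDAC2 (243) to 382 TPM in RBBP4. The 3 HUSH genes, which act in silencing of transposable elements, had 29.7 TPM in MPHOSPH8, 44.7 in TASOR and 55.5 in PPHLN1. The small modifier gene SUMO2 had a mean of 609 TPM, and the maintenance methyltransferase DNMT1 had 310 and 237 TPM. TRIM24 had a mean of 62.3 TPM and TRIM33 of 75.3. The remodelling and silencing genes had 17.8 TPM in MORC3, 32.01 in SMARCAD1, 41.7 in ATRX and 78.2 in DAXX. ZFP57, the KRAB zinc finger protein of imprinted loci, was at 0 in both libraries.

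The study also printed a list of genes in contact with ribosomal DNA (rDNA) in these cells, made by circular chromosome conformation capture and not from these libraries. The copy read here held 4823 different names, fewer than the full list, so some members may be missing from it and the counts below hold for this copy only. It named 66 of the 245 members (26.9%), 3099 of 19392 coding genes and 66 of 1188 other coding genes of chromosome 19 (5.56%). Of the named members 44 (66.7%) were detected, against 137 of 179 (76.5%) of the others, and their median log2(mean TPM + 1) was 1.71 against 2.48. Over all coding genes 63.2% of the named and 63.8% of the others were detected, with medians of 2.61 and 2.98. In ZNF genes of other chromosomes 80.5% of 41 named and 86.0% of 215 others were detected, with medians of 3.42 and 3.49. For the other coding genes of chromosome 19 the shares were 57.6% and 59.0%, with medians of 2.86 and 2.34. The named members were unevenly placed, with 16 of 26 in cluster F, all detected, 13 of 37 in D, of which 5 were detected, and 3 of 58 in I. The part of position in the difference was not tested. Among ZNF names that the study printed as terms in an association search there were 79 members, of which 65 (82.3%) were detected. Of the 166 other members 116 (69.9%) were detected. The median log2(mean TPM + 1) was 2.28 in the 79 and 2.32 in the 166.

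Of 17 ZNF-named genes of chromosome 19 that are not coding, 3 (17.6%) were detected, and 5 were at 0 in both libraries. The detected ones were the pseudogenes ZNF887P with 4.72 and 3.93 TPM, ZNF56P with 1.93 and 3.79 TPM and ZNF321P with 1.09 and 1.44 TPM. ZNF321P also takes part in the read-through gene that overlaps ZNF816.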

How the data were processed

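Both libraries of poly(A)+ RNA came from untreated HEK293T cells and were sequenced with 50-base reads (2 samples, 1 group). Per the submitters' processing notes, the authors used Trimmomatic 0.36, STAR 2.6.1c and RSEM 1.3.1 with GRCh37. The study's methods name featureCounts, but the columns are those of RSEM. Expected counts, TPM and FPKM were deposited by the authors, as was the posterior SD, a score of how surely shared reads were assigned. Transcript lengths are given per library. A pooled table of the authors was not used.

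The members and lists were chosen with earlier results of these data known. GENCODE release 44 on GRCh37 gave symbols, types and coordinates, with 96.1% of identifiers matched; ZNF229 was matched through its transcripts. For the comparison of libraries, rounded counts entered an exact binomial test (two-sided, scipy 1.17.1) with TMM-scaled sizes (edgeR 4.0.16), and p-values were adjusted by Benjamini-Hochberg over all genes with 10 or more counts in sum. Log2 levels used a pseudocount of 1. In simulated data 186 of 200 genes changed 2-fold were recovered, with 6 false calls. The simulation held counting error only, and its changed genes lay well above the lowest count tested. It therefore does not cover genes with few counts or further spread between libraries.

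Shared 50-base windows were counted on either strand over 93.1% of the transcripts in the tables, those with a GENCODE sequence. KRAB boxes and fingers were found as letter patterns in the longest translated GENCODE coding frame without a stop, and promoters came from RefSeq on GRCh38.p14. The KRAB patterns were [VLI].F.[DE][VL]...[FL]...EW..L and, broader, L...[QRK]..LY..VM.E, where a dot stands for any residue.

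Named members were the 10 highest, the extremes of each cluster, those called between libraries, the 10 detected with the least certain counts, the most alike neighbours, those at 0, those at the threshold, the extremes in fingers and length, and 18 with a known role. A single gene of the KRAB machinery list is not reported here. Genes at the edges of runs and head-to-head neighbours were named after their values were seen. The use of strand in counting is not stated. Intervals and floors cover counting error only.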

Additional observations from a re-analysis of the deposited data

How the results depend on the processing

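No paired analysis was possible because all samples belong to 1 group. The number of detected members was 181 and stayed within 1.5 times of it under 4 other criteria (172 to 214), but was 81 at a TPM of at least 5. It was 186 or 187 with a single replicate, and 73 of the 106 members that share no exon with another gene. The median level of 2.30 became 2.01 and 1.98 with pseudocounts of 0.1 and 0.01, 1.92 with FPKM, 2.55 with posterior mean TPM, 2.48 for members with a mean TPM of at least 0.1 and 2.62 for detected members, and 2.23 to 2.30 with a single replicate. The 2 members differing between libraries became 0 with no minimum count, 1 with a minimum of 100, 0 with adjustment over genes with whole counts and 0 with posterior mean counts. The replicate difference stayed between 0.179 and 0.216. The single member with uncertain counts became 8 at a ratio over 0.1, 0 at a ratio over 0.5, 7 with members of at least 0.1 TPM and 1 to 2 with a single replicate.

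The span of 52.0 percentage points in the detected share between clusters was 40.5 at a TPM of at least 0.1, 48.0 at 5, 52.0 with FPKM, 48.0 with 10 counts, 32.4 with posterior mean TPM, 48.7 with either single replicate, and 52.0 and 48.7 with gaps of 0.5 and 2 Mb. The neighbour difference of 0.61 was 0.66 and 0.72 with pseudocounts of 0.1 and 0.01, 0.56 with FPKM, 0.42 with posterior mean TPM, 0.41 for members of at least 0.1 TPM, 0.29 for detected members, 0.58 with gaps of 2 Mb and 0.59 to 0.60 with a single replicate. The KRAB difference of -0.30 was -0.37 with a pseudocount of 0.01, -0.075 for members of at least 0.1 TPM, -0.81 with a looser and -1.09 with a broader pattern, -0.38 without cluster G, and -0.36 to -0.25 with a single replicate. The median share of windows was 1.10% with 100-base and 9.46% with 36-base windows. The gap in detection between listed and unlisted rDNA-contacting members, -9.87 percentage points, was -20.4 at a TPM of at least 5. The machinery count of 24 was the same under all 7 alternatives. The cause of these changes was not tested.

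With 61.5 counts in the median member, depth limits calls near the threshold, where 11 members passed in a single library. The 14 members without a count have an upper limit of 0.109 to 0.810 TPM for counting error alone. The broader pattern, the leaving out of cluster G or of overlapping members and the use of detected members alone were chosen after seeing the data.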
